A study of Mus musculus with 20 samples.

Results

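Messenger RNA of the DNA methylation machinery was followed through mouse neural development. The set comprised 7 genes: the DNA methyltransferases Dnmt1, Dnmt3a and Dnmt3b, their catalytically inactive relative Dnmt3l, and the maintenance partners Uhrf1, Uhrf2 and Hells. They were found by symbol among the 34620 gene rows of each count table, all 7 had a row, and all 7 passed the filter on low counts. Dnmt3l passed through its reads in the dorsal neurons alone, so it is described separately and counted in no tally of the dMSN comparisons.

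Of the 20 samples of the series, 6 are polyA RNA sequencing libraries, and the other 14, bisulfite samples, are not analysed here. Hippocampal precursors (HP), striatal precursors (SP), young CA pyramidal neurons of the hippocampus (yCA) and young medium spiny neurons of the striatum (yMSN) have 1 library each. Dorsal medium spiny neurons (dMSN, spelled "Medial Spiny Neurons" in the labels) have 2. All 6 are labelled as wild-type male C57BL/6 mice and as microdissected brain tissue. No age or number of animals is given in the sources used here. The tissue was dissected rather than sorted, so each library can hold other cells. A lower value can mean fewer cells of a type or less of the RNA per cell, and bulk libraries cannot tell these apart. Nothing says that the dMSN pair came from separate animals, so p-values measure the spread between libraries, which may be technical.

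DNA methylation in mammals sits mostly on the cytosine of CpG pairs and has to be copied each time a cell divides. Uhrf1 recognises the half-methylated CpG left behind the replication fork and recruits Dnmt1, which methylates the new strand. Hells (also called Lsh) is a chromatin remodeller that helps methylation reach packed DNA. Dnmt3a and Dnmt3b place methyl groups on sites that had none, and Dnmt3l stimulates them, chiefly in germ cells. Uhrf2 is a paralogue of Uhrf1 that is known not to replace it in maintenance, and it is grouped with the maintenance genes here by family. Neurons no longer divide, yet Dnmt1 and Dnmt3a are known to be expressed in them.

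Reads assigned to genes numbered between 31282185 (HP) and 36969136 (yMSN) in the single libraries, and dMSN 1 and 2 were deeper, with 152347673 and 145713678. Levels are given as CPM, the count scaled to library size by the trimmed mean of M values (TMM). Where a gene has no read, levels of up to 0.0861 CPM in HP or 0.0249 CPM in dMSN 1 remain possible by counting error alone. The labels were checked against marker genes as summed CPM. The 12 medium spiny neuron markers reached 7007 in dMSN 1 and 7001 in dMSN 2, but yMSN (604) was not above yCA (771). The 10 hippocampal pyramidal markers stood at 1518 in yCA, 746 in yMSN, and 1452 and 2194 in the dMSN pair. The 10 neural precursor markers stood at 2578 in HP and 3727 in SP against 1501 in yCA and 1547 in yMSN. The young libraries stood apart by markers of skeletal muscle and epidermis. The 12 skeletal muscle markers summed to 6854 CPM in yCA and 2529 in yMSN, against 20.4 in HP, 17.4 in SP and 102 in each dMSN library, and none of the 12 was at 0 in the young libraries. The 8 epidermal markers stood at 323 in yCA and 456 in yMSN, against at most 6.66 elsewhere. In yMSN alone of the young pair, 8 olfactory epithelium markers (200 against 22.9 in yCA) and 8 bone and cartilage markers (783 against 48.8) were also high. The bone and cartilage sum was also high in HP (598) and SP (489), but there Col2a1 alone gave 546 and 451 CPM. The median bone and cartilage marker stood at 0.431 CPM in HP and 0.629 in SP, against 39.6 in yMSN. The olfactory markers summed to 101 in dMSN 1 and 98.2 in dMSN 2, with Gng13 (45.3 and 40.1) and Ano2 (28.2 and 24.6) highest. Their median was 3.35 and 3.16 CPM there, against 22.5 in yMSN. Erythroid markers (8 genes) were high in the precursors, at 2040 in HP and 2120 in SP, against 40.5 or less elsewhere. In the dMSN libraries the embryonic globin genes Hbb-bh1, Hbb-y and Hba-x were at 0.

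Sequence from the starts of these genes is shown first, because 3 of them (Uhrf1, Hells and Dnmt3b) followed nearly the same course over the libraries. Windows from 250 bases before to 50 bases after each start were read from RefSeq (GRCm38.p6), with 7 of 7 genes matched. They were searched on both strands for TTTNNCGC, a simplified form of the site bound by E2F factors, which drive genes of DNA replication. The motif occurs in 5.17% of all 32841 windows of this length. Uhrf1 held it in both of its windows, Hells in its only window, and Dnmt1 in 1 of 3 windows. No match lay in the windows of Dnmt3b, Dnmt3a, Uhrf2 or Dnmt3l, which says only that these letters are not in these windows. In the runs below, written 5′ to 3′ on the gene's strand, capitals mark the motif as found on either strand. The Uhrf1 and Dnmt3b runs end where the gene's annotated span begins, and the others are 30 bases around a match.
Uhrf1 upstream (chr17:56303087-56303336, plus strand): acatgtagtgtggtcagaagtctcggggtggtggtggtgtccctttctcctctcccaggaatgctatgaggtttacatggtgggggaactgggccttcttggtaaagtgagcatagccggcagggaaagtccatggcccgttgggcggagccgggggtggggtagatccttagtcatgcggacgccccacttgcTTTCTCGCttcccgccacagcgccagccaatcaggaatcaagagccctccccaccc
Uhrf1 second window (chr17:56304117-56304146, plus strand): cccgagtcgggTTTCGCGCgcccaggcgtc
Hells (chr19:38930917-38930946, plus strand): gaccaccgggtTTTCCCGCgaaagagaagc
Dnmt1 window 3, first site (chr9:20952823-20952852, minus strand): gtttccgcgcGCGCGAAAAAgccggggtct
Dnmt1 window 3, second site (chr9:20952574-20952603, minus strand): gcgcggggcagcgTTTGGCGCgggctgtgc
Dnmt3b upstream (chr2:153649199-153649410, plus strand): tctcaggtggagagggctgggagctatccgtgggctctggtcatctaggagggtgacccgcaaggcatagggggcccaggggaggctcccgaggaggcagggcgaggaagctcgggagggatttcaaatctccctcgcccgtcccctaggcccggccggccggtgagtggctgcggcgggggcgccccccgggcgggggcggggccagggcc
The matches begin 56 and 185 bases before the start in the first and second Uhrf1 windows and 62 bases before it in Hells. In Dnmt1 a pair of overlapping matches begins 219 and 217 bases before the start, and another begins at base 34 after it. Among the genes of replication licensing, nucleotide supply and DNA synthesis (the S phase list below) that had a window, 9 of 18 held the motif. Of all 27018 genes 5.93% held it. The motif itself contains a CpG, and these shares are not matched for CpG count. A match is a description of letters and not a measured binding site. The windows held 34 CpG in Hells, 30 in Dnmt3b, 28 in Uhrf2, 12 and 33 in Uhrf1, and 46, 47 and 18 in Dnmt3a, against a median of 7 over all windows. The 3 Dnmt1 windows held 2, 12 and 33, and those of Dnmt3l held 6, 4 and 3.

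Levels were highest in the 2 precursor libraries and lowest in the 2 dMSN libraries for every gene of the set except Dnmt3l, as the plot of levels by library shows. The share of all genes with this order is not given here, so the order is a description and does not set these genes apart. The size of the fall differed widely between genes. From HP to the mean of the dMSN pair, the level of Uhrf1 was 199-fold lower and that of Dnmt1 9.09-fold lower. CPM values are not corrected for transcript length, so levels are compared between libraries and not between genes.

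**Figure D1:**
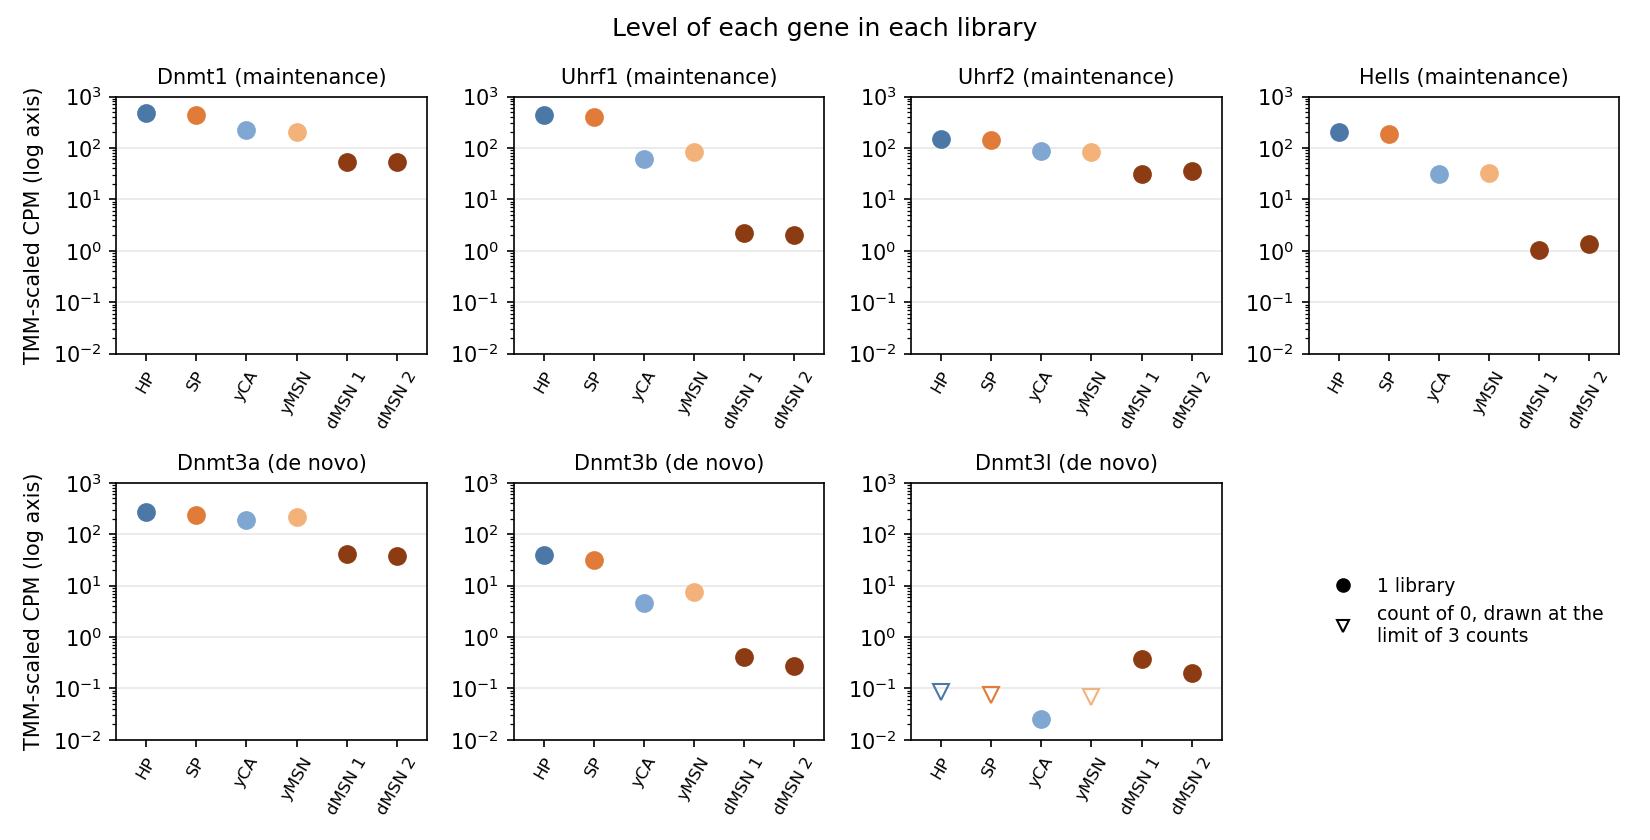
Each panel plots 1 gene, with the TMM-scaled CPM on a log axis against the 6 libraries, 1 point per library. Open triangles are counts of 0, drawn at the CPM of 3 counts. For 6 genes the points step down from precursors to young libraries to dMSN, steeply for Uhrf1, Hells and Dnmt3b and shallowly for Dnmt1, Uhrf2 and Dnmt3a, while Dnmt3l has more than 1 read only in dMSN.

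Dnmt1, the enzyme that copies methylation onto the new strand, stood at 486 CPM in HP and 442 in SP, 226 in yCA and 208 in yMSN, and 52.8 and 54.1 in dMSN 1 and 2 (53.5 ± 0.945, SD, n = 2). The 3 stages did not overlap, and within each stage the libraries lay close together. Dnmt1 was lower in the young than in the precursor libraries (log2 change -1.10, SE 0.150, adjusted p = 0.00599 by edgeR's quasi-likelihood test with Benjamini-Hochberg adjustment, which gives every adjusted p below unless another tool is named). It was lower again in dMSN than in yMSN, by a log2 change of -1.96 (SE 0.197, adjusted p = 2.71e-06). It was still well detected there, with 6351 reads in dMSN 1 and 6272 in dMSN 2. The span of the microRNA gene Mir7081 overlaps that of Dnmt1 in RefSeq.

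Uhrf1, the reader that brings Dnmt1 to replicated DNA, fell furthest. Its level was 428 and 396 CPM in HP and SP, 61.6 and 83.0 in yCA and yMSN, and 2.24 and 2.06 in the dMSN pair (2.15 ± 0.123, SD, n = 2). The young libraries sat far below the precursors, and the dMSN pair far below the young libraries. The log2 change was -2.53 in young against precursor (SE 0.198, adjusted p = 0.00201) and -5.27 in dMSN against yMSN (SE 0.212, adjusted p = 2.3e-09). Over the whole striatal course, dMSN against SP, it was -7.53 (SE 0.228, adjusted p = 5.11e-10).

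Its paralogue Uhrf2 moved least of the maintenance genes. It stood at 148 and 142 CPM in HP and SP, 88.0 and 81.9 in yCA and yMSN, and 30.6 and 36.2 in dMSN 1 and 2 (33.4 ± 3.96, SD, n = 2). Again the stages did not overlap. The log2 change was -0.77 in young against precursor (SE 0.155, adjusted p = 0.0168), and this call was lost without dMSN 1 (adjusted p = 0.0537) or without dMSN 2 (adjusted p = 0.0525). In dMSN against yMSN it was -1.30 (SE 0.197, adjusted p = 8.85e-05).

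Hells, the remodeller, followed Uhrf1 closely. Its levels were 205 and 186 CPM in HP and SP, 30.9 and 33.0 in yCA and yMSN, and 1.05 and 1.36 in the dMSN pair (1.21 ± 0.224, SD, n = 2). The yCA and yMSN libraries were almost equal, both far from the precursors. The log2 change was -2.61 in young against precursor (SE 0.189, adjusted p = 0.0018) and -4.77 in dMSN against yMSN (SE 0.224, adjusted p = 5.64e-09).

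Among the de novo enzymes, Dnmt3a kept most of its level in the young libraries. It stood at 271 and 238 CPM in HP and SP, 192 and 213 in yCA and yMSN, and 42.0 and 37.1 in dMSN 1 and 2 (39.6 ± 3.50, SD, n = 2). The precursor and young libraries lay near each other, and the dMSN pair was separate from both. Young against precursor did not pass (log2 change -0.33, SE 0.169, adjusted p = 0.189). In dMSN against yMSN Dnmt3a was lower, with a log2 change of -2.43 (SE 0.196, adjusted p = 4.22e-07). Antisense and overlapping gene models (Dnmt3aos, Gm31623) share the span of Dnmt3a in RefSeq, no strand setting is stated, and reads from them cannot be told apart from those of Dnmt3a.

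Dnmt3b, the other active de novo enzyme of the set, instead fell early. It stood at 39.2 and 30.9 CPM in HP and SP, 4.63 and 7.46 in yCA and yMSN, and 0.416 and 0.276 in the dMSN pair (0.346 ± 0.0986, SD, n = 2). Its dMSN levels rest on 50 and 32 reads. A near copy, Gm14490, had 2, 1, 1 and 1 reads in HP, SP, yCA and yMSN but 8 and 20 in dMSN 1 and 2. Reads that align to both copies may have been set aside as not unique and be missing from both counts. The log2 change of Dnmt3b was -2.56 in young against precursor (SE 0.362, adjusted p = 0.00652) and -4.42 in dMSN against yMSN (SE 0.302, adjusted p = 1.05e-07).

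Dnmt3l, the cofactor without enzyme activity, was at the edge of detection. It had 0 reads in HP, SP and yMSN, 1 read in yCA, and 45 and 23 reads in dMSN 1 and 2, which is 0.374 and 0.199 CPM. Against the 3 counts that a 0 in yMSN allows, the observed levels were 5.42-fold higher in dMSN 1 and 2.87-fold higher in dMSN 2. These are not lower bounds, since the counting error of the dMSN reads is left out. Since the gene entered the tests only through its dMSN reads, its p-values support nothing and are left out here. DESeq2 did not call it in either dMSN comparison. The neighbouring gene Aire, whose span overlaps that of Dnmt3l, had 13, 12, 8 and 20 reads in HP, SP, yCA and yMSN and 11 and 12 in the dMSN pair. Reads of the overlap cannot be assigned without strand.

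In all, 5 of 7 genes were lower in young than in precursor libraries and none higher, where 13.7% of the 19192 genes tested were lower and 21.7% higher. All 4 maintenance genes passed. Of the de novo genes, Dnmt3b passed and Dnmt3a did not. Dnmt3l, with 1 read in the 4 libraries compared, could not have been called lower. In dMSN against yMSN all 6 genes other than Dnmt3l were lower, where 35.4% of genes were lower and 32.1% higher. The same 6 were lower in dMSN against SP, a comparison that shares the dMSN libraries, where 33.1% were lower and 39.1% higher. The median log2 change of all genes tested was 0.10, -0.11 and 0.20 in the 3 comparisons. The median of the 4 maintenance genes was -1.81, -3.37 and -5.16.

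Other measures moved with these changes. The skeletal muscle and epidermal markers given above were high in both young libraries, and their part in young against precursor was not tested. Fits without yCA or without yMSN could not address that part, because the young library that remained also held these markers. The dMSN pair stood high in glial markers: oligodendrocyte lineage genes summed to 8261 and 7033 CPM against 202 to 329 in the other libraries, and astrocyte genes to 3515 and 3406 against 81.3 to 405. The part of glial cells in the dMSN values was not tested, nor that of the muscle, epidermal, bone and olfactory markers of yMSN in dMSN against yMSN.

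**Figure D2:**
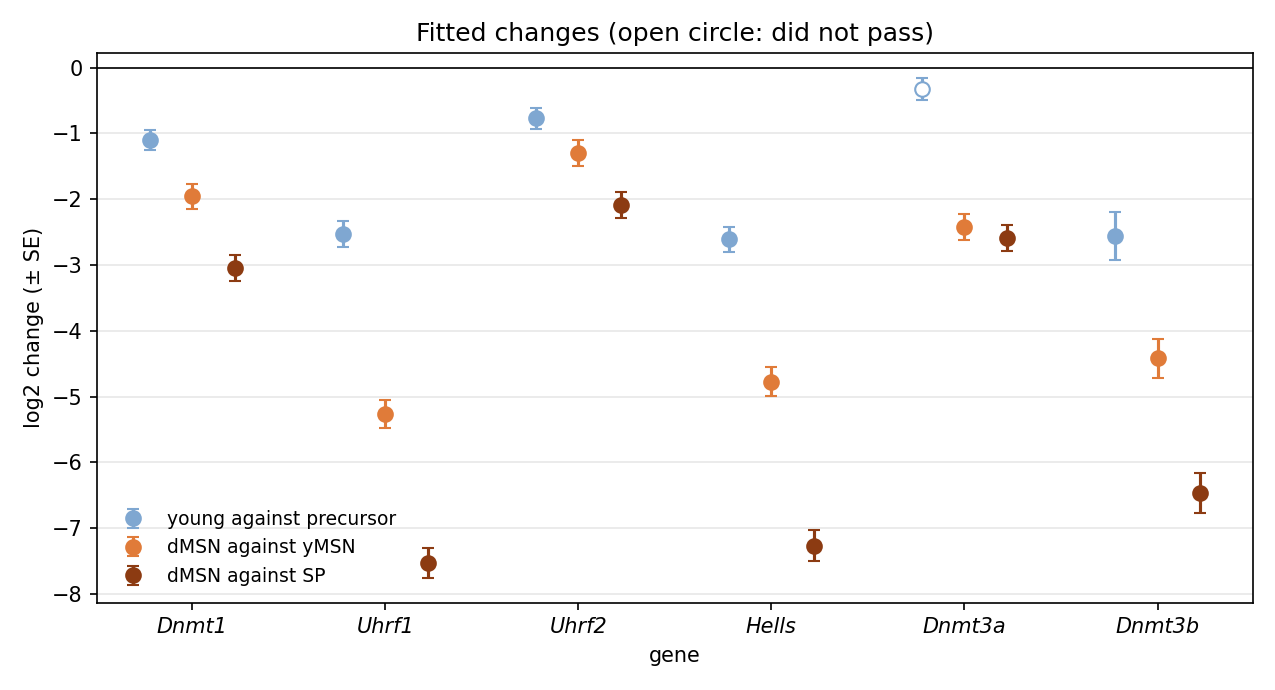
The fitted log2 change of 6 genes is plotted with its SE for young against precursor, dMSN against yMSN and dMSN against SP; open circles did not pass at an adjusted p of 0.05. Uhrf1, Hells and Dnmt3b reach -7.53, -7.27 and -6.47 in dMSN against SP, while Dnmt1, Dnmt3a and Uhrf2 stay between -3.05 and -2.09.

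By the size of their change over the 6 libraries the genes fell into 2 sets, each holding maintenance and de novo enzymes. This grouping was made after the values were seen and has no test. Uhrf1, Hells and Dnmt3b formed the steep set, and Dnmt1, Uhrf2 and Dnmt3a the shallow set. The root mean square difference of centred log2 CPM was 0.222 to 0.508 over the 3 pairs within the steep set and 0.332 to 0.436 over the 3 pairs within the shallow set. Over the 9 pairs between the sets it was 1.44 to 2.27. Pearson's r, which ignores the size of a change, did not separate the sets, with 0.959 to 0.999 between them, 0.993 to 0.998 within the steep set and 0.958 to 0.997 within the shallow set, over 6 libraries that share their stages. In dMSN against SP the changes were -7.53 for Uhrf1, -7.27 for Hells and -6.47 for Dnmt3b (SE 0.228, 0.239 and 0.309), and -3.05 for Dnmt1, -2.59 for Dnmt3a and -2.09 for Uhrf2 (SE 0.198, 0.197 and 0.195). Dnmt3a lost most of its level after the young stage, whereas Dnmt3b had already lost most of it by then.

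Ratios of 2 genes within a library do not depend on how libraries are scaled, and their change between libraries does not depend on transcript length. They set the de novo enzymes against the maintenance enzymes directly, with intervals that cover counting error only. Dnmt3a reads per Dnmt1 read numbered 0.558 and 0.537 in HP and SP, 0.852 and 1.02 in yCA and yMSN, and 0.796 and 0.685 in dMSN 1 and 2. The balance moved toward Dnmt3a in both young libraries, by 1.53-fold in yCA over HP (95% interval 1.47 to 1.59) and by 1.91-fold in yMSN over SP (1.84 to 1.98). In the dMSN pair it was back below yMSN, at 0.777 and 0.668 times the yMSN ratio (0.741 to 0.814 and 0.637 to 0.702). The intervals of the 2 dMSN libraries do not overlap, so they differ by more than counting error.

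Within the de novo pair, Dnmt3b reads per Dnmt3a read were 0.145 and 0.130 in HP and SP, 0.0241 and 0.0350 in yCA and yMSN, and 0.00989 and 0.00745 in dMSN 1 and 2. The ratio was lower at each stage than at the one before in every library. It fell to 0.167 times its HP value in yCA (0.141 to 0.195) and to 0.270 times its SP value in yMSN (0.237 to 0.306).

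Uhrf1 and Hells fell more than Dnmt1 itself. Uhrf1 reads per Dnmt1 read were 0.880 and 0.896 in HP and SP, 0.273 and 0.400 in yCA and yMSN, and 0.0424 and 0.0381 in the dMSN pair. Hells reads per Dnmt1 read went from 0.423 in HP and 0.420 in SP through 0.137 in yCA and 0.159 in yMSN to 0.0198 and 0.0252 in dMSN 1 and 2. Both ratios thus separate the stages without overlap, while Dnmt1 itself remained readily detected. The ratio of the paralogues rose instead. Uhrf2 reads per Uhrf1 read were 0.346 and 0.357 in HP and SP, 1.43 and 0.986 in yCA and yMSN, and 13.7 and 17.5 in dMSN 1 and 2. That ratio was 38.2-fold its SP value in dMSN 1 (33.7 to 43.6) and 49.1-fold in dMSN 2 (42.9 to 56.3).

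**Figure D3:**
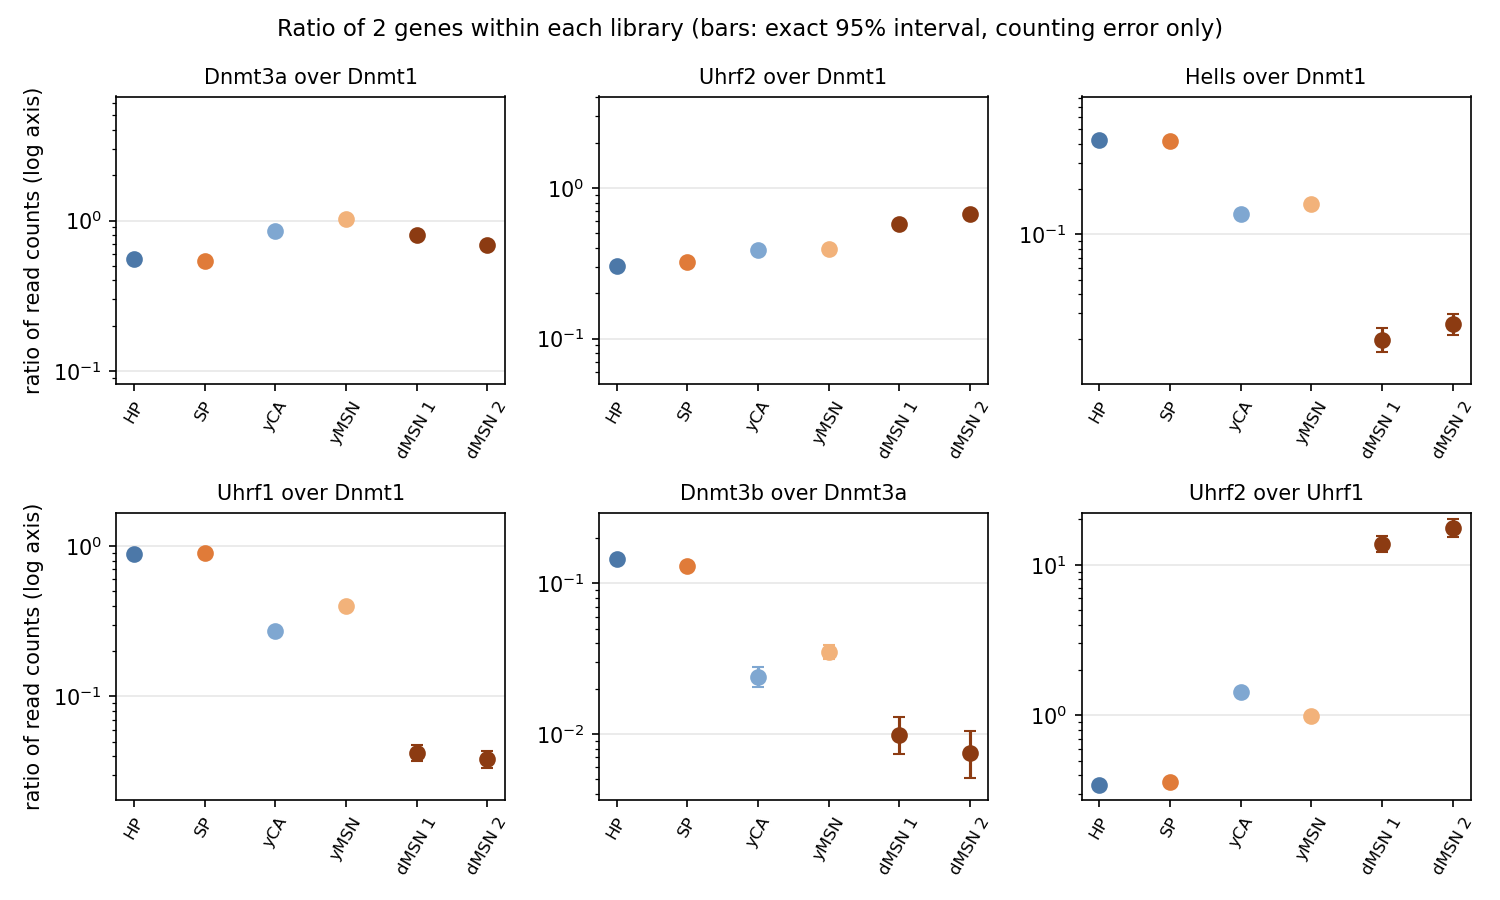
Each panel plots the ratio of read counts of 2 genes on a log axis for the 6 libraries, with exact 95% intervals for counting error, smaller than the points in most. Dnmt3a over Dnmt1 is lowest in the precursors (0.558 and 0.537) and highest in yMSN (1.02), Uhrf1 and Hells over Dnmt1 and Dnmt3b over Dnmt3a fall by stage, and Uhrf2 over Uhrf1 rises to 13.7 and 17.5 in dMSN.

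The hippocampal and striatal lineages were compared next. Between the precursor libraries, SP over HP, CPM ratios ran from 0.788 for Dnmt3b to 0.957 for Uhrf2, all below 1 beyond counting error, with no replicate check. Between the young libraries, yMSN over yCA, Uhrf1 stood at 1.35 (95% interval 1.28 to 1.42) and Dnmt3b at 1.61 (1.34 to 1.95). Hells was at 1.07 (0.987 to 1.15), which counting error alone covers, Dnmt3a at 1.11, Uhrf2 at 0.930 and Dnmt1 at 0.921. All these ratios moved with the scaling of libraries. On the log2 scale that of Dnmt1 was -0.12, but -0.02 with no scaling factor and -0.21 with relative log expression (RLE) scaling, and that of Uhrf1 was 0.43, but 0.53 and 0.34. The olfactory, bone and cartilage markers above differ between these 2 libraries, and their part in the ratios was not tested.

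By edgeR's quasi-likelihood test none of the 7 genes passed between striatal and hippocampal libraries, all with an adjusted p of 1. None had an unadjusted p under 0.05, and neither DESeq2 nor limma voom called any. Log2 changes of 6 genes lay between -0.13 for Dnmt1 (SE 0.148) and 0.16 for Dnmt3b (SE 0.345), and Dnmt3l had 1 read in these 4 libraries. Over all genes 0% were called lower and 0% higher, with 826 of 19192 at an unadjusted p under 0.05, 60 called by DESeq2 and 0 by limma voom. The call count over all genes changed when a library was left out, to 1495 or 1515 with HP or SP removed and to 116 or 130 with yCA or yMSN removed, and none of the 7 genes was among them.

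The young libraries had kept different shares of Uhrf1 and Dnmt3b: 0.144 and 0.118 of the HP level in yCA (95% intervals 0.138 to 0.150 and 0.101 to 0.138) against 0.209 and 0.242 of the SP level in yMSN (0.202 to 0.217 and 0.213 to 0.273). The difference of the lineages in the change from precursor to young was tested with the spread of the dMSN pair. None of the 7 passed in edgeR, DESeq2 or limma voom, where 2.08% of all genes were lower and 3.12% higher. Dnmt3b had a log2 difference of 1.03 (SE 0.459), with an unadjusted p of 0.0441 and an adjusted p of 0.283. Uhrf1 had 0.54 (SE 0.328, adjusted p = 0.495), Dnmt3a 0.34 (SE 0.333, adjusted p = 0.748) and Hells 0.24 (SE 0.346, adjusted p = 0.861). Dnmt1 and Uhrf2 were near 0, at 0.02 (SE 0.334) and -0.04 (SE 0.332), both with an adjusted p of 1. The difference rests on 4 single libraries, so it is limited by their number.

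Genes of DNA replication and cell division gave a scale for these falls. Of 22 S phase genes (replication licensing, nucleotide supply and DNA synthesis) 21 were lower in young than in precursor libraries (13.7% of all genes were), with a median log2 change of -1.94 and a range of -2.49 to -1.32. The exception, the thymidine kinase gene Tk1, had a log2 change of -1.46 (SE 0.445, adjusted p = 0.0541). All 10 mitosis genes were lower, with a median of -2.00. All 22 S phase genes had a more negative change than Dnmt1, Uhrf2 and Dnmt3a, and none had a more negative change than Uhrf1, Hells or Dnmt3b. Of the 10 mitosis genes, 1 had a more negative change than Uhrf1 and none than Hells or Dnmt3b. In dMSN against SP all 22 S phase genes (median -4.29) and all 10 mitosis genes (median -6.82) were lower, as were 33.1% of all genes. There 18 of the 22 fell more than Dnmt1, 2 more than Dnmt3b, 1 more than Hells and none more than Uhrf1. Of the 10 mitosis genes, all fell more than Dnmt1, 7 more than Dnmt3b, 3 more than Hells and 3 more than Uhrf1. The proliferation marker Mki67 stood at 757 and 817 CPM in HP and SP, 204 and 230 in yCA and yMSN, and 2.09 and 2.61 in the dMSN pair. It thus remained well above its dMSN level in both young libraries.

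The genes with the most similar course were found among 11727 genes with a mean of at least 5 CPM, by the smallest root mean square difference over the 6 libraries. Large changes between stages are shared by many genes, so closeness is a description. Nearest to Uhrf1 were Sgol1, a protector of chromosome cohesion, at 0.203, Hells at 0.222, the mitotic kinesin Kif2c, Igf2bp2 and the exonuclease gene Exo1. Nearest to Hells were Rrm2, a subunit of ribonucleotide reductase, at 0.130, then Bub1b, Ccnb1, Cdc6 and Fignl1. Nearest to Dnmt3b were Ercc6l, a mitotic helicase, at 0.139, then the replication factor gene Mcm10, Eme1, Espl1 and Kif20a. The shallow genes had other neighbours. Nearest to Dnmt1 were the chromatin remodelling subunit gene Smarcc1, at 0.0540, Poc1b, the nuclear export receptor gene Xpo1, Sdad1 and Psme4. Uhrf2 lay nearest to Ccdc117, at 0.0557, Zfp101, Wdr3, Nono and Nufip2. Dnmt3a lay nearest to Itpripl1, at 0.0689, Traf4, Tmem194b, Adcy6 and Ctnnd1. Ranked by correlation in place of distance, 0 or 1 of each 5 stayed the same, so the names depend on the measure.

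Partners that bring the maintenance machinery to replicating DNA were described as a list of 7. In young against precursor 4 of 7 were lower and none higher (median log2 change -1.40), where 13.7% of all genes were lower and 21.7% higher. These were the replication clamp gene Pcna (-1.67, SE 0.155, adjusted p = 0.00259), the clamp-associated gene 2810417H13Rik, also called Pclaf (-2.25), the ligase gene Lig1 (-1.76) and the Hells partner gene Cdca7 (-1.40). The deubiquitinase gene Usp7, with a log2 change of -0.43, Zbtb24 with 0.03 and Dmap1 with -0.14 did not pass. In dMSN against yMSN 4 of 7 were lower and 1 higher, where 35.4% of all genes were lower and 32.1% higher. The lower ones included 2810417H13Rik (-6.02, SE 0.276, adjusted p = 4.68e-09) and Cdca7 (-3.53, SE 0.200, adjusted p = 2.37e-08). Dmap1, which encodes a Dnmt1-associated protein, rose by 1.08 (SE 0.223, adjusted p = 0.000945). Its levels were 39.1 and 35.2 CPM in HP and SP, 32.3 in yCA, 35.0 in yMSN, and 81.3 and 67.3 in the dMSN pair. Pcna did not pass there, with a log2 change of -0.26 (adjusted p = 0.271).

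Of 11 genes for histone-linked factors that guide or accompany DNA methylation, 6 were lower and 1 higher in young against precursor (median log2 change -0.69), where 13.7% of all genes were lower and 21.7% higher. In dMSN against yMSN 10 of 11 were lower and none higher (median -1.46, with 35.4% of all genes lower), and in dMSN against SP likewise 10 and none (median -2.30, with 33.1% lower). The Trim28 corepressor gene went from 1002 CPM in HP and 874 in SP through 406 in yCA and 397 in yMSN to 181 and 174 in dMSN 1 and 2. Zfp57, a zinc finger gene known for keeping methylation at imprinted sites, was the 1 that rose in the young libraries, by 1.15 (SE 0.210, adjusted p = 0.0127). It stood at 62.4 and 62.3 CPM in HP and SP, 173 and 111 in yCA and yMSN, and 9.17 and 7.74 in the dMSN pair, so it was highest in the young libraries and lowest in dMSN. The histone H3K9 methyltransferase gene Ehmt2 did not pass in any of the 3 comparisons, while its partner Ehmt1 went from 223 CPM in HP and 221 in SP to 20.9 and 24.4 in the dMSN pair.

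The methyl donor of all these enzymes, S-adenosylmethionine, is made and recycled by a cycle of which 8 genes were described. In young against precursor 7 of 8 were lower and none higher (median log2 change -0.97, with 13.7% of all genes lower), among them Ahcy, which clears the product that inhibits methyltransferases (-1.91, SE 0.146, adjusted p = 0.00196), and Shmt1 (-2.09, SE 0.197, adjusted p = 0.00267). In dMSN against yMSN 3 of 8 were lower and 1 higher (median -0.30), a share of lower genes near the 35.4% of all genes. Methionine synthase, Mtr, fell by 3.14 (SE 0.235, adjusted p = 2.2e-07), from 19.4 CPM in yMSN to 2.00 and 2.40 in the dMSN pair. Mat2b, the regulatory subunit of the enzyme that makes the donor, rose by 1.68 (SE 0.278, adjusted p = 0.000174), from 47.1 CPM to 117 and 186. The tRNA methyltransferase gene Trdmt1 (Dnmt2), at 4.36 to 7.27 CPM, did not pass in any of the 3 comparisons. Dppa3, an oocyte factor that opposes Uhrf1, had no reads in the 6 libraries.

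**Figure D4:**
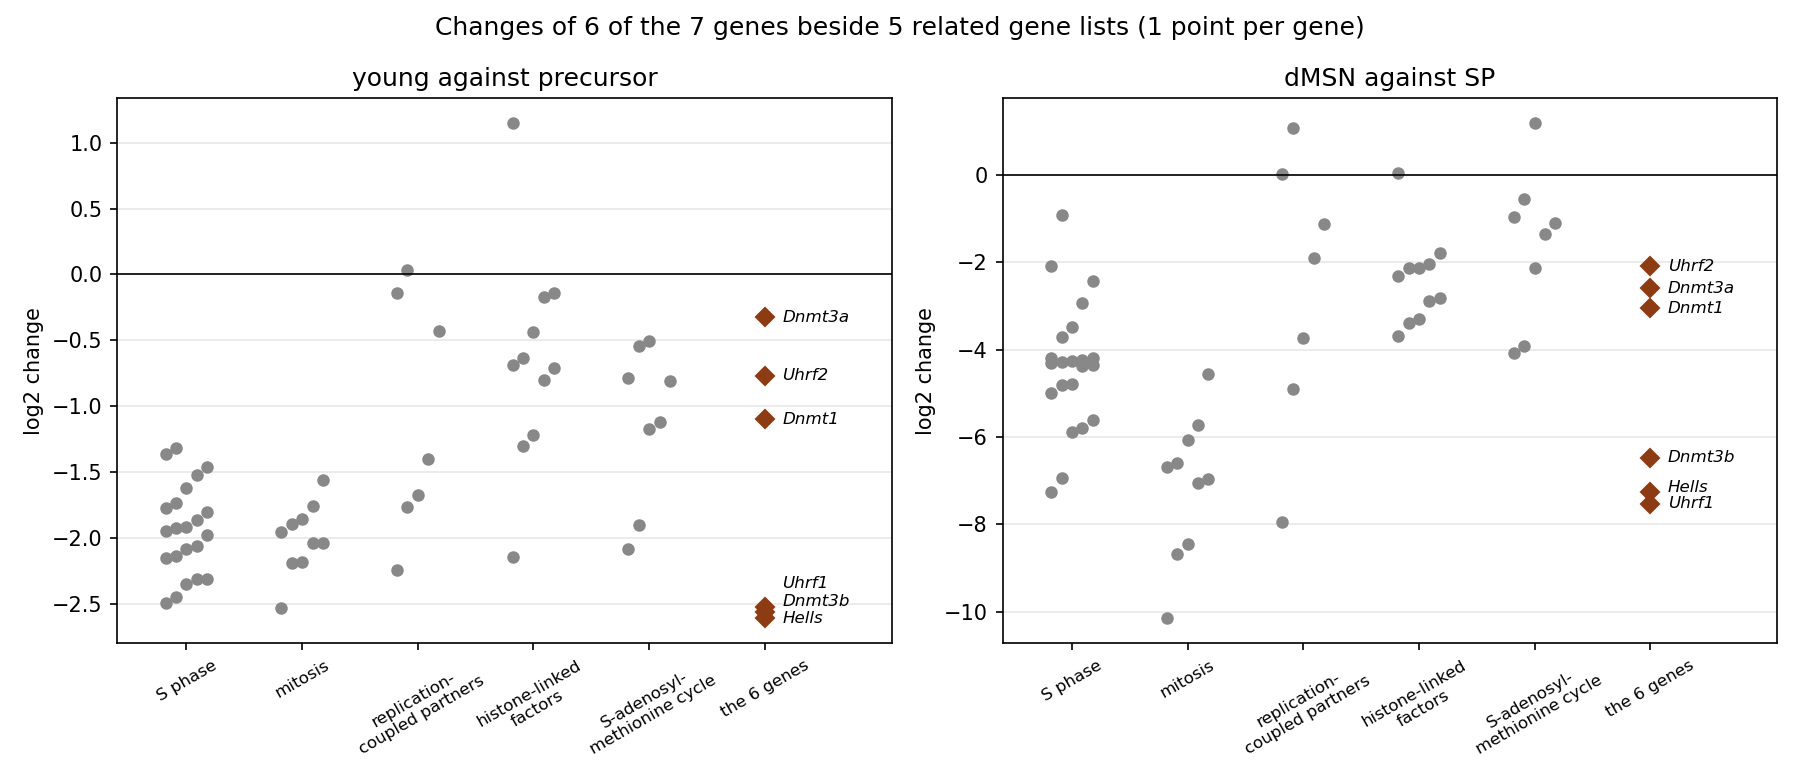
Each point is the fitted log2 change of 1 gene in young against precursor (left) and dMSN against SP (right), for 5 gene lists in grey and 6 of the 7 genes in brown; the 2 vertical scales differ. In the left panel Dnmt1, Uhrf2 and Dnmt3a lie above all 22 S phase genes and Uhrf1, Dnmt3b and Hells below them.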

How the data were processed

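The 6 RNA libraries were prepared with polyA selection from 1 ug of total RNA, per the labels' protocols. The authors deposited unnormalised counts for 34620 gene symbols in each library, followed by 5 summary lines that stay out of the totals here (reads in no feature 5.34% to 9.81%, ambiguous 1.38% to 2.01%, not unique 17.3% to 27.3%). Per the submitters' processing notes, the tools included HTSeq, TopHat2 2.0.2 and Bowtie 1.0.0 and the builds mm9 and NCBIM37. The role of each and the strand setting are not given in the sources used here.

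All genes were fitted together in edgeR 4.0.16 (R 4.3.3), after TMM scaling and filterByExpr, with quasi-likelihood F tests of 19192 genes adjusted by Benjamini-Hochberg at 0.05. Each SE is the size of the log2 change over the root of its F value. The young and the lineage contrasts came from an additive model of lineage and stage (2 residual degrees of freedom). Its spread comes from the difference of the lineages in the change from precursor to young, and from the dMSN pair. The other comparisons used 1 mean per cell group (1 residual degree of freedom, from the dMSN pair). Single pairs of libraries and within-library ratios have exact 95% intervals for counting error only. Log2 CPM in the search for similar genes used a prior count of 2. Alternatives were RLE and upper quartile scaling, filters set to none or to 1 CPM in at least 2 libraries, DESeq2 1.42.0, limma 3.58.1 voom, the other model, and each library left out. Each fit was also tested on simulated data, with known changes put into 200 genes.

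All 7 genes and every gene of the lists could be named, and the 5 nearest genes per member with a mean of at least 1 CPM. The members and lists were chosen with earlier results of these data known. The RefSeq windows are on GRCm38.p6, another build than the authors', and 25575 of 34620 symbols matched its table, so overlapping gene models may differ from those counted.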

Additional observations from a re-analysis of the deposited data

How the results depend on the processing

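The numbers of genes of the set called lower, 5 in young against precursor and 6 in each dMSN comparison, were the same under RLE and upper quartile scaling, both filters, DESeq2, limma voom and the other model. Leaving out 1 library gave 4 to 5, 6 to 6 and 6 to 6, with the lower count from Uhrf2 without dMSN 1 or dMSN 2. Dnmt3l is kept out of these numbers because it entered the tests only through its dMSN reads. A filter at 1 CPM in 2 libraries removes the gene. DESeq2 did not call it, with a log2 change of 6.12 against yMSN and 5.83 against SP. Against yMSN it also went uncalled in a fit with a library left out that did give an estimate. Against SP the fit with a library left out that did not call it gave no estimate or no adjusted p. Some alternatives gave Dnmt3l no estimate or no adjusted p.

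Over all genes, leaving out 1 library gave 3590 to 7355 calls in young against precursor, 6609 to 12943 in dMSN against yMSN, 9263 to 13838 in dMSN against SP and 0 to 1515 in striatal against hippocampal. Striatal against hippocampal had 60 calls with DESeq2 and 356 with 1 mean per cell group, and the difference of the lineages had 3 with limma voom against 998. Changes that did not pass turned sign around 0. The difference of the lineages for Dnmt1 was -0.062 with RLE scaling, -0.11 with no filter, -0.058 at 1 CPM and -0.062 with DESeq2. Striatal against hippocampal gave Dnmt3b -0.065 with limma voom. Leaving out 1 library gave there -0.15 to 0.091 for Hells and -0.19 to 0.15 for Dnmt3a (above 0 without HP or SP), and -0.11 to 0.43 for Uhrf1 and -0.35 to 0.69 for Dnmt3b (below 0 without yCA or yMSN). Without HP or SP the lineage term rests on yMSN over yCA alone, and without yCA or yMSN on SP over HP alone. For Uhrf1 those single ratios were 0.43 and -0.11 on the log2 scale. Why the ratios differ between the young and the precursor libraries was not tested. RLE scaling moved the median of all genes in young against precursor from 0.10 to -0.018 and in dMSN against SP from 0.20 to 0.080, and upper quartile scaling moved it in dMSN against yMSN from -0.11 to -0.27.

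No paired analysis was possible because HP, SP, yCA and yMSN have 1 library each, so no 2 replicate numbers are shared between groups. Lineage, a term of the additive model, does set yCA against HP and yMSN against SP. Dnmt3l rests on 45 and 23 reads, and Dnmt3b in dMSN on 50 and 32.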
